A study of Mus musculus with 19 samples.

Results

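Perigonadal white fat of C57BL/6 mice was profiled as whole tissue by poly-A RNA sequencing in 19 libraries, and the libraries were grouped here by the level of 1 gene, Cdh16. Cdh16 encodes a cadherin of kidney tubule and genital duct epithelium, and 6 of the 19 libraries held it above 20 CPM, the read counts scaled to equal library totals. These 6 libraries are called Cdh16-rich below and the other 13 Cdh16-poor. The mice had gained weight on 1 of 2 diets, a 60% high-fat diet (HFD) or the liquid diet Ensure, and were sampled at peak weight (fed) or after 24 h without food (fasted). HFD gave 4 fed and 4 fasted libraries and Ensure gave 6 fed and 5 fasted, all of the same strain and without any genetic change named in the labels. A library is named below by its group and its number in the labels. The Cdh16-rich libraries were HFD fed 21, HFD fasted 24, HFD fasted 26, Ensure fed 16, Ensure fasted 2 and Ensure fasted 5. The members were chosen from measured Cdh16, so its own values describe the choice and were not tested. Inside the threshold Cdh16 was lowest in Ensure fasted 5, with 38.4 CPM, and highest in Ensure fasted 2, with 60.4 CPM, and the nearest library outside it was Ensure fed 1 with 12.7 CPM. The next were HFD fed 22 with 4.35 CPM and Ensure fed 12 with 4.03 CPM.

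Perigonadal fat lies against the gonad and its ducts. In the male, sperm leave the testis through the rete testis and the efferent ductules and mature in the epididymis. The efferent ductules are lined by multiciliated cells, whose beating cilia are built under the transcription factor Foxj1, and by absorptive cells that take up fluid through Slc9a3 and endocytic receptors. The epididymis secretes proteins such as Crisp1 and lipocalins into its lumen and is wrapped in smooth muscle. Pax8 and Pax2 are transcription factors of the embryonic ducts from which these tubes and the kidney arise. The labels do not give the sex of the mice. In whole tissue, fewer cells of a type and less RNA per cell cannot be told apart, and this holds for every level below.

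The markers fixed for tract epithelium, Pax8 and Foxj1, were high together in 5 of the 6 Cdh16-rich libraries. Foxj1 was 60.8 CPM in HFD fed 21, 72.3 in HFD fasted 24, 64.8 in HFD fasted 26, 50.9 in Ensure fed 16 and 65.6 in Ensure fasted 2. It was 8.5 CPM in Ensure fasted 5, below the 12.5 CPM of the Cdh16-poor library Ensure fed 1. Pax8 ran the other way. It lay between 12.4 and 23.6 CPM in the first 5 libraries and at 152 CPM in Ensure fasted 5. The Cdh16-poor library with the most Pax8 was Ensure fed 10, at 7.34 CPM, and this library held 0.770 CPM of Foxj1 and 0.346 CPM of Cdh16. The libraries therefore did not fall into 2 even classes, and the split is named by Cdh16 throughout. Values for single genes are CPM scaled by TMM, which adjusts library sizes for differences in composition, and sums over gene lists are plain CPM.

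**Figure D1:**
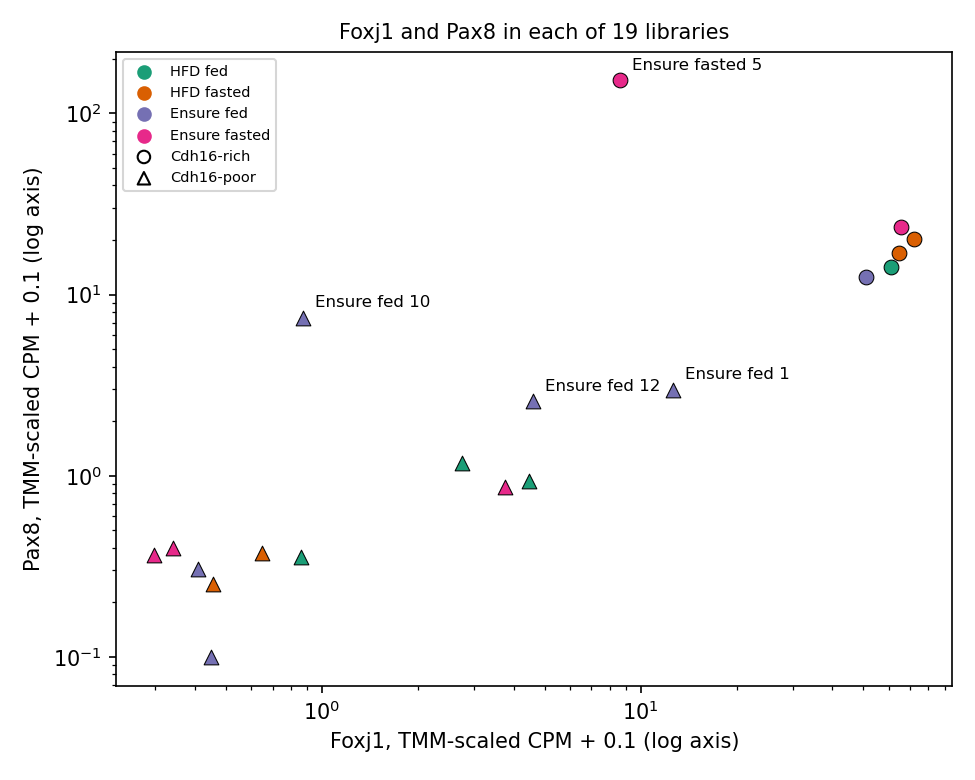
Foxj1 (x axis) against Pax8 (y axis) in each library, as TMM-scaled CPM plus 0.1 on log axes, with colours for the 4 labelled groups and circles for Cdh16-rich libraries. 5 Cdh16-rich libraries sit together at 50.9 to 72.3 CPM of Foxj1, while Ensure fasted 5 has 8.5 CPM of Foxj1 and 152 CPM of Pax8.

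Depth did not separate the 2 classes. Gene counts summed to 12.8 M to 22.6 M in the Cdh16-rich and 16.5 M to 21.4 M in the Cdh16-poor libraries. 2 libraries stood apart in mapping: reads aligned to more than 1 place were 26.0% of the total in Ensure fasted 5 (95% Wilson interval 25.96 to 25.99, counting error only) and 27.7% in HFD fasted 28 (27.69 to 27.72). They were 20.7% to 23.5% in the other 17. Sequencing lanes were spread over the split, with 3 of 9 libraries Cdh16-rich in lane 7, 2 of 5 in lane 5 and 1 of 5 in lane 6. All HFD libraries shared lane 7.

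The split did not follow feeding or diet closely. In HFD, 1 of 4 fed and 2 of 4 fasted libraries were Cdh16-rich, and in Ensure 1 of 6 fed and 2 of 5 fasted. That is 2 of 10 fed against 4 of 9 fasted libraries (p = 0.35, two-sided Fisher's exact test) and 3 of 8 HFD against 3 of 11 Ensure libraries (p = 1, same test). With so few libraries these tests do not show that the shares were equal.

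Motile cilium genes were high in 5 of the 6 Cdh16-rich libraries and much lower in the sixth, Ensure fasted 5. They were grouped with Cdh16 as genes of tract epithelium, so their levels are described and not tested. Of 60 listed genes of the cilium machinery (dynein arms, radial spokes, central pair, assembly factors), 55 were in the files and passed the filter on low counts. Their summed level was 627 to 1293 CPM in 5 Cdh16-rich libraries, only 308 CPM in Ensure fasted 5, and 79.0 to 218 CPM in the Cdh16-poor libraries, with the highest in Ensure fed 1. Over the first 5 these sums ranked as the sums of sperm and germ cell genes did, from Ensure fasted 2 (1534 CPM) down to Ensure fed 16 (96.6 CPM). Ensure fasted 5 was out of that order, with 383 CPM of sperm and germ cell genes. Which cells made the cilium transcripts was not tested. In 50 of the 55, all of the first 5 Cdh16-rich libraries lay above all 13 Cdh16-poor ones, beside 6.57% of all 16014 genes tested. With Ensure fasted 5 included this held for 34 of the 55, beside 5.08% of all genes. Ensure fasted 5 was below the other 5 in 43 of the 55 and inside the Cdh16-poor range in 18.

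Single genes show the same order. Dnah5, an outer dynein arm heavy chain, lay between 38.6 and 54.5 CPM in the 5 libraries, at 7.25 CPM in Ensure fasted 5 and at a median of 0.205 CPM in the Cdh16-poor libraries, where the highest was 8.39 CPM. Rsph4a, a radial spoke head protein, was 18.3 to 22.9 CPM in the 5 libraries, 2.55 CPM in Ensure fasted 5 and at most 4.23 CPM in the Cdh16-poor libraries. Across the 5 libraries the median coefficient of variation of the 55 genes was 26.9%. In the Cdh16-poor class, Ensure fed 1 was the highest library for 30 of the 55 genes and Ensure fed 10 for 11.

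The regulators of multiciliated cell fate followed the machinery with exceptions. Gmnc, which starts the multiciliated programme, was 3.91 to 6.28 CPM in the 5 libraries and 0.450 CPM in Ensure fasted 5, within the Cdh16-poor range of 0 to 0.507 CPM. Trp73, which acts above Foxj1, was 3.62 to 5.48 CPM in the 5 libraries, 1.05 CPM in Ensure fasted 5 and at most 1.47 CPM in the Cdh16-poor libraries. Myb, also expressed in other dividing cells, was 8.40 to 10.5 CPM over all 6 Cdh16-rich libraries, with Ensure fasted 5 among them at 10.3 CPM. The highest Cdh16-poor value of Myb, 8.16 CPM, was in HFD fasted 28. Rfx3, an RFX factor that binds X-box motifs at ciliary genes and is also made in cells with a single primary cilium, was 12.0 to 17.1 CPM against 6.05 to 8.88 CPM, a narrower gap. E2f4 overlapped between the classes, with 32.8 to 39.4 against 33.6 to 49.6 CPM.

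Promoters of cilium genes were searched for the motif of these factors, and 5 that hold it are shown. RFX factors bind the X-box, and a simple form of it, GTNNCCNNGGNAAC, was searched on both strands (the other strand reads GTTNCCNNGGNNAC, and a site can match both). The windows were RefSeq promoters of GRCm38.p6, from 250 bases before to 50 bases after each start. A match was present in 1.29% of all 32851 windows and in 1.49% of all genes with a window. It was present in 5 of 43 cilium machinery genes with a window (11.6%), in 4 of 22 intraflagellar transport genes (18.2%) and in 1 of 7 cilium regulators. It was present in 0 of 19 duct epithelium genes and 0 of 25 simple epithelial genes. A match is a description of letters, not of a bound site. The 5 upstream stretches below hold a match in capitals with up to 30 bases on each side, 5′ to 3′ on the strand of the gene. They are Pifo at chr3:106001498-106001547 (minus strand), Ttc29 at chr8:78213271-78213341 (plus), Kif9 at chr9:110476937-110476993 (plus), Ccno at chr13:112987553-112987626 (plus) and Tekt4 at chr17:25471400-25471473 (plus).
Pifo: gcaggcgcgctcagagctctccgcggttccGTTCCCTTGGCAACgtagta
Ttc29: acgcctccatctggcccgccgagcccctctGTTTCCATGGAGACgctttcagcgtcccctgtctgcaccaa
Kif9: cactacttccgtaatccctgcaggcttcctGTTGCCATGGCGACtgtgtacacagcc
Ccno: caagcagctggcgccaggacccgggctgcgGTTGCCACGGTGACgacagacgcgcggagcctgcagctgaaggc
Tekt4: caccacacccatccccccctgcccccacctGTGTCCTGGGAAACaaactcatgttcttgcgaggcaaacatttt

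The 5 genes differ in how they sat in the libraries. Ttc29, an axonemal protein, was 2.89 to 11.8 CPM in the 5 libraries, 2.30 CPM in Ensure fasted 5 and at most 0.872 CPM in the Cdh16-poor libraries. Pifo, needed for ciliary disassembly, was 3.20 to 7.35 CPM in the 5 libraries, 1.15 CPM in Ensure fasted 5 and at most 0.822 CPM in the Cdh16-poor libraries. Tekt4, a tektin of the axoneme, was 2.53 to 10.1 CPM in the 5 libraries, 3.40 CPM in Ensure fasted 5 and at most 0.513 CPM elsewhere. Kif9, a kinesin of the central pair, was present in every library, at 9.72 to 29.0 CPM in the 5 libraries, 8.05 CPM in Ensure fasted 5 and 2.54 to 5.48 CPM in the Cdh16-poor ones. Ccno, which acts in centriole amplification, was 1.39 to 2.1 CPM in the 5 libraries and highest in Ensure fasted 5, at 6.90 CPM, unlike Foxj1.

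Genes of intraflagellar transport, which every ciliated cell uses, were present in all libraries and differed less. Their summed level was 600 to 833 CPM in the Cdh16-rich and 468 to 553 CPM in the Cdh16-poor libraries. Dync2h1, the motor of retrograde transport, was 22.8 to 39.0 CPM against 11.3 to 18.4 CPM. Ift88 was 17.1 to 20.9 CPM against 9.09 to 14.5 CPM. The classes did not overlap for these 2 genes, and Ensure fasted 5 lay inside the range of the other 5 for both, at 33.2 and 19.6 CPM.

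**Figure D2:**
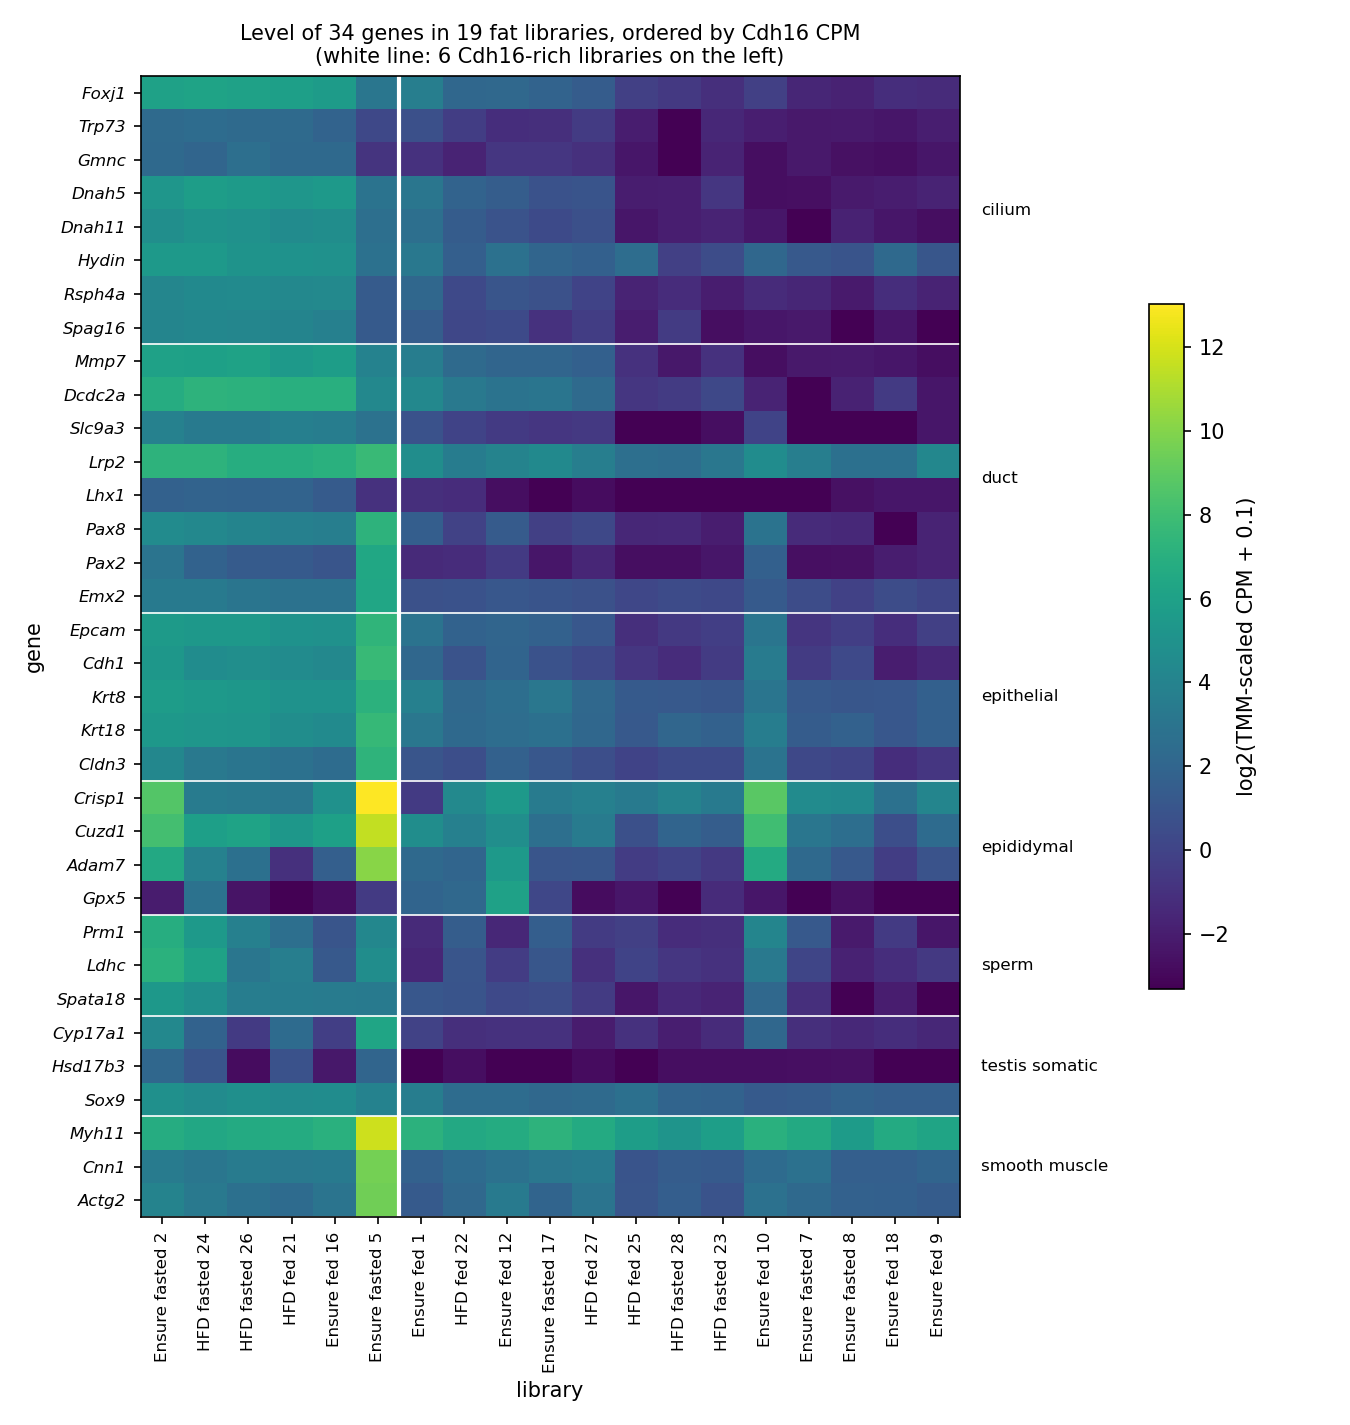
Levels of 34 genes (rows, grouped by list) in the 19 libraries (columns, ordered by Cdh16 CPM), as log2 of TMM-scaled CPM plus 0.1, with a white line between the 6 Cdh16-rich and 13 Cdh16-poor libraries. Cilium and duct genes are even across the first 5 columns, and Ensure fasted 5 stands out by epididymal and smooth muscle genes such as Crisp1 at 8391 CPM and Myh11 at 3580 CPM.

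Duct epithelium genes divided into those that followed Foxj1 and those that followed Pax8. Dcdc2a, a ciliary doublecortin protein, was 111 to 154 CPM in the 5 libraries, 19.4 CPM in Ensure fasted 5 and at most 20.1 CPM, in Ensure fed 1, elsewhere. Mmp7, a secreted metalloproteinase of duct epithelium, was 46.3 to 69.7 CPM in the 5 libraries, 14.8 CPM in Ensure fasted 5 and at most 11.9 CPM, in Ensure fed 1, elsewhere. Lhx1, a transcription factor of the embryonic duct, was 2.53 to 3.56 CPM in the 5 libraries and 0.400 CPM in Ensure fasted 5.

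Slc9a3, the sodium-hydrogen exchanger of absorptive cells, was 10.0 to 14.3 CPM in the 5 libraries, 7.20 CPM in Ensure fasted 5 and at most 1.64 CPM in the Cdh16-poor libraries. Lrp2 (megalin), the endocytic receptor of the same cells, was high in all 6, at 116 to 152 CPM in the 5 libraries and 221 CPM in Ensure fasted 5, against 5.75 to 25.7 CPM. Pax2 and Emx2, transcription factors of the duct, went with Pax8. Pax2 was 1.86 to 7.63 CPM in the 5 libraries and 87.5 CPM in Ensure fasted 5, and Emx2 was 7.13 to 9.95 and 81.6 CPM. Of 22 listed duct genes 19 passed the filter, and 8 of them had all 6 libraries above all 13, beside 5.08% of all genes.

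The general epithelial genes were highest in Ensure fasted 5. Over 38 listed adhesion and keratin genes the summed level was 656 CPM at the lowest Cdh16-rich library, 3531 CPM in Ensure fasted 5 and 232 to 471 CPM in the Cdh16-poor libraries. Of the 35 that passed the filter, 33 were higher in Ensure fasted 5 than in the other 5. In 24 of the 35 all 6 libraries lay above all 13, beside 5.08% of all genes. Epcam, a membrane protein of simple epithelia, was 31.0 to 48.1 CPM in the 5 libraries, 163 CPM in Ensure fasted 5 and at most 8.00 CPM, in Ensure fed 10, elsewhere. Cdh1 (E-cadherin) was 19.8 to 40.5 CPM in the 5 libraries and 208 CPM in Ensure fasted 5. Krt8 and Dsp, a keratin and a desmosome protein, were highest among Cdh16-poor libraries in Ensure fed 1, with 13.6 and 11.3 CPM. Ensure fed 10 was the highest Cdh16-poor library for 17 of the 35.

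The list of secreted and defence proteins overlapped between the classes, with a summed level of 1927 to 3018 CPM against 1650 to 3563 CPM, and 2 of its 12 tested genes, Lcn2 and Wfdc2, had no overlap, beside 5.08% of all genes. Lcn2 was 78.5 to 141 CPM in the 5 libraries and 88.7 CPM in Ensure fasted 5, against 4.72 to 43.3 CPM. Wfdc2 was 2.95 to 5.35 CPM in the 5 libraries, 2.45 CPM in Ensure fasted 5 and at most 0.383 CPM in the others. Ensure fasted 5 was thus inside the range of the other 5 for Lcn2 and below it for Wfdc2. Basal cell markers were near the Cdh16-poor range in the 5 libraries, where Trp63 was 0.912 to 3.29 CPM against 0.274 to 7.49 CPM. Trp63 was 29.5 CPM in Ensure fasted 5, and Krt14 was 12.4 CPM there against at most 1.82 CPM in the other 5.

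Epididymal secretory genes did not follow Cdh16. Crisp1 had 2 very high values, 8391 CPM in Ensure fasted 5 and then 405 in Ensure fasted 2, and was 8.74 to 31.0 CPM in the other 4 Cdh16-rich libraries. In the Cdh16-poor libraries it was 466 CPM in Ensure fed 10 and 46.1 CPM in Ensure fed 12, with a median of 15.5 CPM. Adam7, a membrane protein of the epididymis, had its highest levels in the same libraries, 1124 CPM in Ensure fasted 5, then 101 CPM in Ensure fed 10.

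Genes of the epididymal head peaked in another library. Gpx5, which protects sperm from peroxides, was 64.5 CPM in Ensure fed 12, 7.08 CPM in HFD fasted 24 and 0.6 CPM in Ensure fasted 5. The lipocalins Lcn8 and Lcn9 were 31.5 and 25.3 CPM in Ensure fed 12 and at most 4.13 and 1.88 CPM in any other library. Of the 14 secretory genes that passed the filter, 9 had Ensure fed 12 and 4 had Ensure fed 10 as the highest Cdh16-poor library. None of the 14 had all 6 Cdh16-rich libraries above all 13, beside 5.08% of all genes. Their coefficient of variation over the first 5 Cdh16-rich libraries had a median of 135%, against 26.9% for cilium machinery.

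The genes most like Cdh16 were taken as the 10 with the highest Spearman correlation over the 19 libraries, among genes with a mean of at least 1 CPM. They were Slc30a3 (rho 0.979), Fam179a (0.978), Spag16 (0.974), Cfap74 (0.974), Adcy8 (0.970), Cfap44 (0.968), D630039A03Rik (0.968), Igsf11 (0.967), Fgfr4 (0.963) and Ttc16 (0.963). Spag16, Cfap74 and Cfap44 encode axoneme proteins. Within the 13 Cdh16-poor libraries alone their rho was 0.901 (Igsf11, Fgfr4 and Ttc16) to 0.985 (Fam179a). Within the 6 Cdh16-rich libraries it was 0.429 (Fam179a) to 0.943 (Slc30a3 and Igsf11). The 10 genes were picked by their correlation in these same libraries, so the values carry no test. These descriptions share libraries and depth.

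Across the split, with diet and feeding group as a further term, edgeR's quasi-likelihood test called 2598 of 16014 genes higher (16.2%) and 1990 lower (12.4%) in Cdh16-rich libraries at a Benjamini-Hochberg adjusted p under 0.05. All adjusted p-values below come from this test unless another is named. They measure association with a grouping made on 1 gene of the same libraries, and so are not independent evidence. With library size in place of TMM, 3451 were higher and 190 lower, so the share of calls that were higher moved from 56.6% to 94.8%. The median log2 fold change over all genes moved from -0.06 to 0.10, a shift of 0.16. The TMM factors did not overlap between the classes, at 1.014 to 1.131 in Cdh16-rich and 0.9198 to 1.005 in Cdh16-poor libraries. Small fold changes across the split therefore depend on the scaling. With DESeq2's size factors in edgeR the share was 66% (1390 lower), and with lane as an added term 64%.

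The number of lower calls depended on single libraries. It was 508 without Ensure fasted 2 and 582 without Ensure fasted 5, and between these and 1226 also without Ensure fasted 7, Ensure fasted 8, Ensure fed 9, Ensure fed 10, Ensure fed 18, HFD fasted 23, HFD fasted 24, HFD fasted 26 or HFD fed 27. HFD libraries alone gave 0 lower calls and 759 higher, and fed libraries alone gave 16 and 648. Without the 5 libraries in which 15 epididymal and sperm genes summed to over 200 CPM (HFD fasted 24, Ensure fed 10, Ensure fed 12, Ensure fasted 2 and Ensure fasted 5), 17 genes were lower and 1270 higher.

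**Figure D3:**
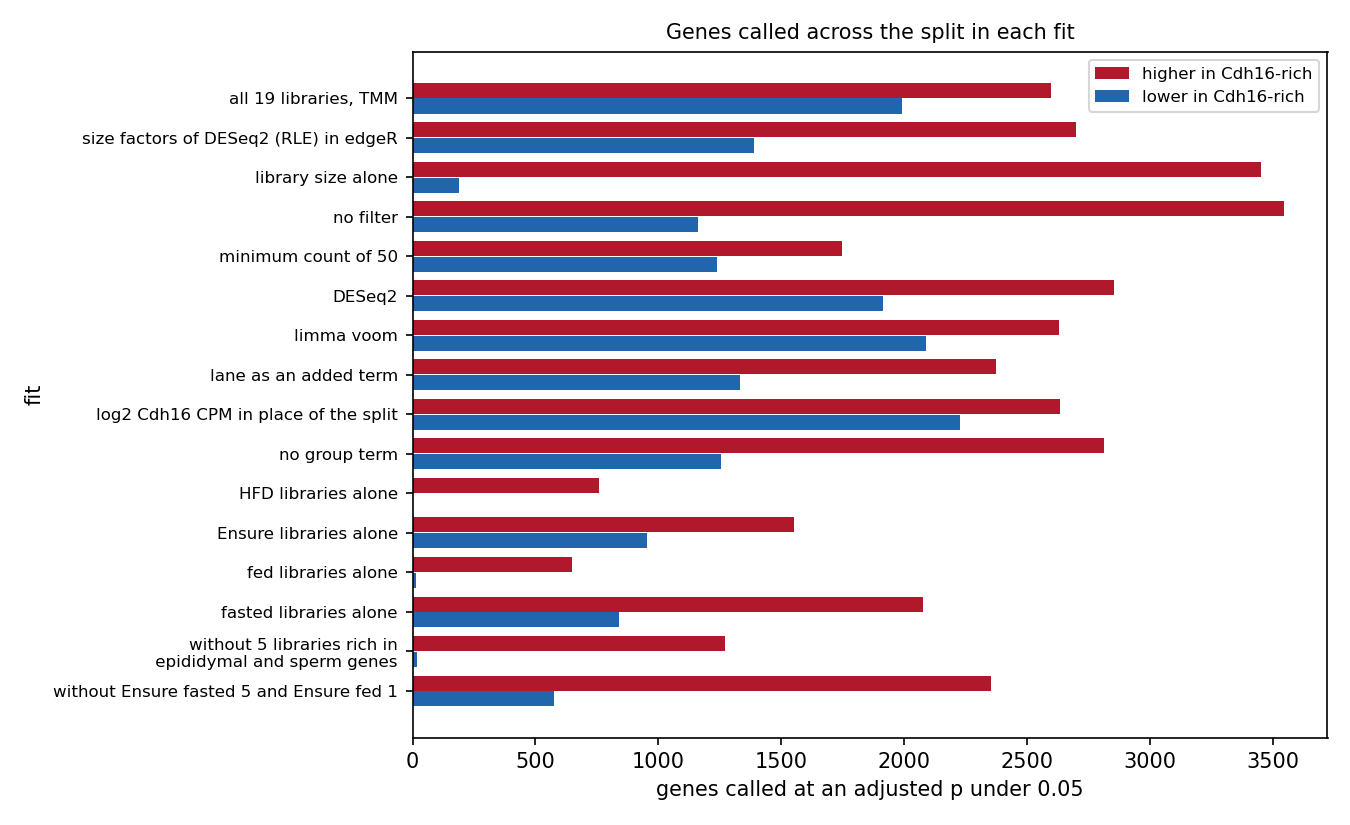
Number of genes called higher (red) or lower (blue) in Cdh16-rich libraries at an adjusted p under 0.05, in each fit drawn (rows; fits that leave out 1 library are not drawn). Higher calls run from 648 to 3545, while lower calls run from 0 in HFD libraries alone to 2226 with Cdh16 as a number.

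Testis genes were higher in Cdh16-rich libraries and differed widely among them. Of 20 sperm and germ cell genes tested, 19 were called higher, beside 16.2% of all genes. The median log2 fold change of the 20 was 4.32, beside -0.06 for all genes tested. Genes low in the Cdh16-poor libraries can pass the filter on low counts through the Cdh16-rich ones. All 20 listed genes passed it, and 19 of 20 were also called with no filter. DESeq2 called 8 of the 20, edgeR called 12 of 19 without Ensure fasted 2, and 1 of 16 was called in Ensure libraries alone. Prm1, the protamine that packs sperm DNA, was 117 CPM in Ensure fasted 2, 46.5 in HFD fasted 24, 19.3 in Ensure fasted 5, 13.9 in HFD fasted 26, 6.05 in HFD fed 21 and 1.91 in Ensure fed 16. In the Cdh16-poor libraries it was 17.7 CPM in Ensure fed 10 and had a median of 0.596 CPM, so the classes overlapped (log2 fold change 4.24, SE 1.29, adjusted p = 0.022). Ldhc, the lactate dehydrogenase of sperm, was 2.27 to 137 CPM (median 19.1) against 0.198 to 9.85 CPM (median 0.564; adjusted p = 0.00277).

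Spata18 was 10.1 to 42.1 CPM against 0 to 4.52 CPM without overlap, and Dazl, an RNA-binding protein of germ cells, was 0.103 to 7.84 CPM against 0.0994 to 0.593 CPM. Spata18 was highest in Ensure fasted 2 and HFD fasted 24, with 42.1 and 28.1 CPM, and 10.1 to 11.9 CPM in the other 4. Ensure fed 10 was the highest Cdh16-poor library for 17 of the 20. In fed libraries alone 0 of 14 tested sperm genes were called, and without the 5 libraries rich in epididymal and sperm genes 14 of 18 were.

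Of 8 Leydig cell genes tested 5 were called higher by edgeR and 3 by DESeq2, and of 8 Sertoli cell genes 7, beside 16.2% of all genes. These too can pass the filter through the Cdh16-rich libraries. With no filter on low counts edgeR called 5 of 8 Leydig cell and 8 of 10 Sertoli cell genes higher. The summed Leydig cell level overlapped between the classes, at 10.5 to 173 CPM against 7.26 to 44.1 CPM, with the highest Cdh16-poor value in Ensure fed 1. The summed Sertoli cell level was 44.1 to 136 CPM against 10.1 to 23.5 CPM. Cyp17a1, the androgen-synthesis enzyme of Leydig cells, was 79.5 CPM in Ensure fasted 5, 19.9 in Ensure fasted 2 and 0.598 to 5.22 in the other 4, against 0.139 to 4.36 CPM (log2 fold change 4.49, SE 1.00, adjusted p = 0.00373, and 0.00451 without Ensure fasted 5). Insl3, a Leydig cell hormone, was 1.71 to 25.6 CPM against 0.988 to 2.59 CPM (adjusted p = 0.00165). Sox9, a transcription factor of Sertoli cells and of many duct epithelia, was 15.2 to 29.0 CPM against 2.36 to 12.3 CPM without overlap (log2 fold change 2.50, SE 0.28, adjusted p = 1.16e-05). Amh, a hormone of Sertoli cells, did not pass the filter and was at most 0.770 CPM in any library. Without the 5 libraries rich in epididymal and sperm genes, 1 of 5 Leydig cell genes and 2 of 7 Sertoli cell genes tested were called.

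Kidney genes were low in sum in every library but Ensure fasted 5. Of 14 listed, 6 passed the filter on low counts through the Cdh16-rich libraries, so no count of calls is given. Their summed level over all 14 was 5.5 to 10.7 CPM in the 5 libraries, 42.6 CPM in Ensure fasted 5 and 0.346 to 1.90 CPM in the Cdh16-poor libraries. Aqp2, a collecting duct water channel that male ducts also make, was 0.930 to 2.45 CPM in the 5 libraries but 32.8 CPM in Ensure fasted 5. Slc34a1, the phosphate carrier of the kidney's proximal tubule, was 1.81 to 4.19 CPM in the 5 libraries, 0.1 CPM in Ensure fasted 5 and at most 0.235 CPM in the others. Umod, the defining product of the thick ascending limb, was at most 1.41 CPM.

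Smooth muscle genes were high in 1 library. Of 11 tested, 5 were called higher, beside 16.2% of all genes. The summed level was 12042 CPM in Ensure fasted 5 beside a Cdh16-rich median of 1222 CPM and a Cdh16-poor range of 620 to 1467 CPM. Myh11, the smooth muscle myosin heavy chain, was 91.0 to 132 CPM in 5 libraries but 3580 CPM in Ensure fasted 5, against 35.8 to 152 CPM (adjusted p = 0.0484, and 0.140 without Ensure fasted 5). Cnn1, a contractile protein, was 8.39 to 11 CPM in 5 libraries but 771 CPM in Ensure fasted 5, against 1.83 to 10.4 CPM (adjusted p = 0.0177, and 0.0132 without Ensure fasted 5). Without that library 3 of the 11 were called, in a fit that called 2342 of 15809 genes higher. The median fold change of the list went from 1.13 to 0.25 on the log2 scale.

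Of the cells that belong to fat itself, few lists differed. Mesothelium had 2 of 14 genes called higher, near the 16.2% of all genes: Rspo1, a secreted Wnt amplifier, at 24.9 to 67.7 against 12.8 to 32.1 CPM (adjusted p = 0.00247), and Ildr2, a membrane protein, at 44.0 to 75.9 against 9.42 to 51.4 CPM (adjusted p = 0.0139). No endothelial gene of 12, no T cell gene of 11 and no B cell gene of 12 was called by edgeR. Lymphatic endothelium had 1 of 6 called higher, near the 16.2% of all genes. That gene was Reln, a secreted matrix protein, at 18.2 to 36.4 against 0.603 to 18.8 CPM (adjusted p = 0.0299). The stromal progenitor list had 2 of 12 called lower, beside 12.4% of all genes. The lists of skeletal muscle (7 tested) and accessory sex gland (3 tested) had none. The Schwann cell list had 1 of 8 called higher and 1 lower, beside 16.2% and 12.4% of all genes.

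Hdc, which makes histamine and is listed with mast cells, followed cilium genes and not the mast cell list. It was 18.3 to 23.2 CPM in the 5 libraries, 6.40 CPM in Ensure fasted 5 and 2.54 to 8.82 CPM in the Cdh16-poor libraries (log2 fold change 1.65, SE 0.24, adjusted p = 9.35e-05). The mast cell proteases Cma1, Cpa3, Mcpt4 and Tpsb2 were not called, with adjusted p from 0.494 to 0.952. Of 9 mast cell genes tested, Hdc was the only one called.

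**Figure D4:**
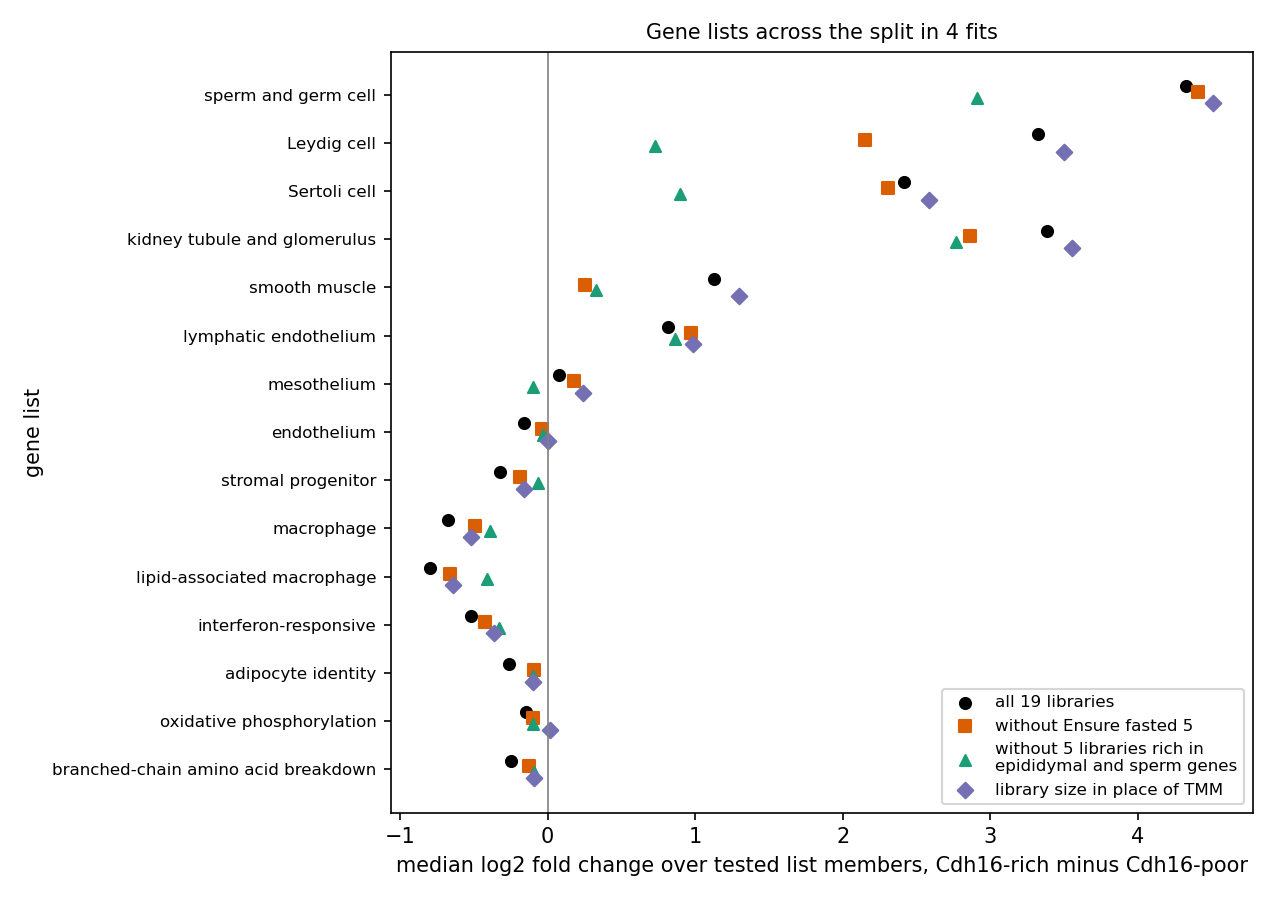
Median log2 fold change (x axis, Cdh16-rich minus Cdh16-poor) over the tested members of 15 gene lists (rows) in 4 fits, shown by symbol and colour. The median of the smooth muscle list is 1.13 in all libraries and 0.25 without Ensure fasted 5. The oxidative phosphorylation median is -0.14 with TMM and 0.02 with library size.

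Matrix genes gave 3 higher calls of 20, near the 16.2% of all genes, so the list did not stand apart. Its 3 called members were the following. Col4a3 and Col4a4, the basement membrane chains of tubules and glomeruli, were 12.8 to 28.1 against 1.37 to 13.8 CPM and 20.1 to 42.7 against 1.64 to 19 CPM, both with a log2 fold change of 1.87 (adjusted p = 7.42e-05 and 0.000377). Lama1, a laminin of epithelial basement membrane, was 3.56 to 11 CPM in the 5 libraries and 49.3 CPM in Ensure fasted 5, against 0.205 to 2.67 CPM (adjusted p = 0.000109, and 6.2e-05 without Ensure fasted 5).

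Of 12 listed sex steroid genes 7 passed the filter and 5 were called higher, beside 16.2% of all genes. Genes can pass the filter through the Cdh16-rich libraries, so the 7 are not independent of the split. With no filter on low counts 7 of all 12 were called higher. Greb1, an estrogen-responsive gene, was 28.1 to 36.5 CPM in the 5 libraries and 22.6 CPM in Ensure fasted 5, against 0.132 to 5.52 CPM (log2 fold change 4.91, SE 0.58, adjusted p = 1.56e-05). Srd5a2, which makes dihydrotestosterone, was 11.1 to 15.4 CPM against 0 to 2.99 CPM without overlap (adjusted p = 4.63e-05). Esr1, the estrogen receptor that efferent ductules hold at high levels and fat also expresses, was 80.1 to 105 CPM in the 5 libraries against 20.2 to 64.6 CPM. Ensure fasted 5, at 36.7 CPM, lay inside the Cdh16-poor range for Esr1 (adjusted p = 0.00543, and 9.98e-05 without it).

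Macrophage genes were lower in Cdh16-rich libraries, and the calls were not stable. Of 11 macrophage genes 8 were called lower, beside 12.4% of all genes, and of 14 lipid-associated macrophage genes 6, with median log2 fold changes of -0.67 and -0.80. C1qa, a complement subunit made by macrophages, was 135 to 245 CPM (median 201) in Cdh16-rich and 180 to 547 CPM (median 275) in Cdh16-poor libraries, so the classes overlapped (log2 fold change -0.67, SE 0.20, adjusted p = 0.021). Trem2, a lipid receptor of macrophages in fat, was 6.05 to 119 CPM (median 19.7) against 7.08 to 690 CPM (median 20.5), with the highest value in HFD fasted 28 (adjusted p = 0.0351, 0.0606 without HFD fasted 28 and 0.103 without Ensure fasted 5). Its medians were close, and the fold change of -1.65 came with an SE of 0.56.

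The macrophage count depended on many libraries. It was 0 of 11 without Ensure fasted 2, Ensure fasted 5, Ensure fasted 8 or HFD fasted 24. It was 1 without HFD fasted 28, 2 without HFD fasted 26, and 3 without Ensure fasted 7, Ensure fed 9, Ensure fed 18 or HFD fasted 23. It was 5 without Ensure fasted 17, HFD fed 25 or HFD fed 27. It rose to 9 without HFD fed 22, and to 10 without HFD fed 21 or with log2 Cdh16 CPM in place of the split. It was also 0 with library size in place of TMM, in HFD libraries alone, in Ensure libraries alone and without the 5 libraries rich in epididymal and sperm genes, and 8 with DESeq2. In fasted libraries alone 9 of 11 macrophage genes were called lower, with a median of -1.02. In fed libraries alone none was, with a median of -0.01, in a fit with 2 Cdh16-rich libraries that called 16 of 14837 genes lower. The difference between fed and fasted libraries was not tested. The lipid-associated macrophage count ranged from 1 to 10 of 14 over left-out libraries.

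Interferon-responsive genes were called lower in 7 of 21, beside 12.4% of all genes. Stat2, a transcription factor of the interferon response, was 44.3 to 63.4 CPM against 47.4 to 114 CPM, with Ensure fasted 17 highest (log2 fold change -0.47, SE 0.11, adjusted p = 0.00468, and 0.0173 without Ensure fasted 5). Oas2, an antiviral enzyme, was 17.1 to 26.7 CPM against 19 to 96.5 CPM (adjusted p = 0.015, and 0.0659 without Ensure fasted 5). The interferon-responsive count was 2 without Ensure fasted 2 or Ensure fasted 5, 4 without Ensure fasted 7, 13 without HFD fasted 26 and 14 without HFD fasted 28. It was 3 with library size in place of TMM and 0 in HFD libraries alone, in fed libraries alone and without the 5 libraries rich in epididymal and sperm genes.

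**Figure D5:**
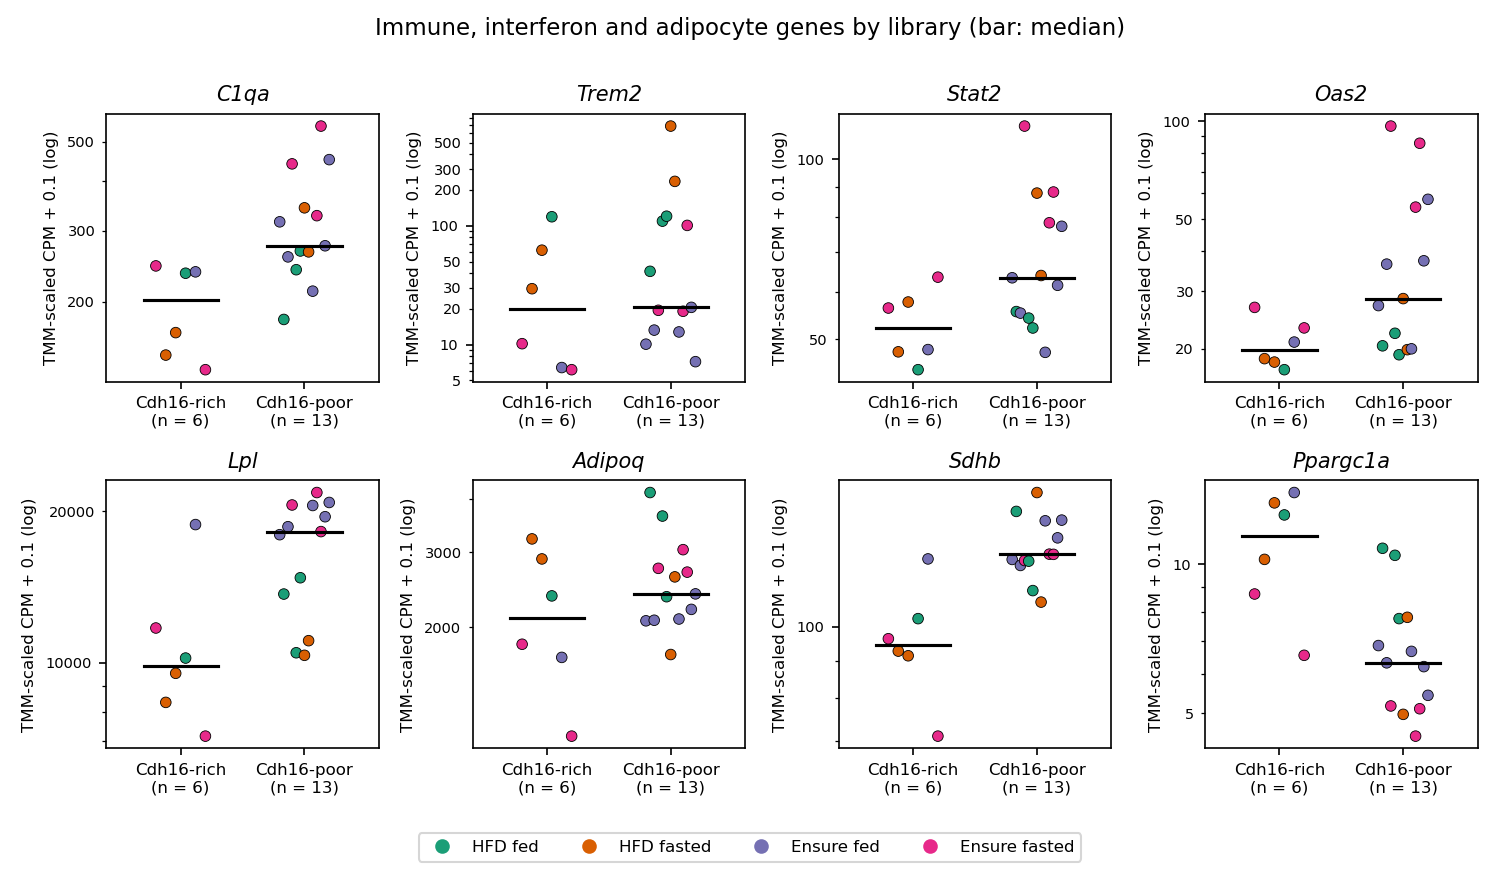
TMM-scaled CPM plus 0.1 (log axes) of 8 genes in the 6 Cdh16-rich and 13 Cdh16-poor libraries, one point a library coloured by labelled group, with a bar at the median. The classes overlap for all 8 genes, and the highest Trem2 value, 690 CPM, is in HFD fasted 28.

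Fat cell genes differed little between the classes, though they were low in Ensure fasted 5. Of 22 adipocyte identity genes 2 were called lower, beside 12.4% of all genes. Adipoq (adiponectin) was 1112 to 3222 CPM (median 2097) against 1727 to 4138 CPM (median 2395), adjusted p = 0.197. Plin1, the coat protein of lipid droplets, was 589 to 1338 CPM (median 1073) against 448 to 1577 CPM (median 1309), adjusted p = 0.789. Lep (leptin) was 825 to 4041 CPM (median 1887) against 1592 to 7272 CPM (median 3295), adjusted p = 0.0806. Ensure fasted 5 was the lowest Cdh16-rich library for these 3 genes, with 1112, 589 and 825 CPM, and for 19 of the 22. The summed level of the list was 37284 CPM in Ensure fasted 5 and 60379 to 72759 CPM in the other 5. In the Cdh16-poor libraries the sum was 46713 to 81476 CPM.

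Lpl, the lipase that frees fatty acids from lipoproteins, was 7156 to 18825 CPM against 10355 to 21795 CPM (log2 fold change -0.48, SE 0.16, adjusted p = 0.0372, and 0.103 without Ensure fasted 5). Fasn, fatty acid synthase, was 1062 to 8312 CPM against 516 to 11293 CPM and was not called (adjusted p = 0.393). Of 19 fatty acid synthesis genes tested, 2 were called higher and 1 lower, beside 16.2% and 12.4% of all genes. The lower one was Tkt (log2 fold change -0.45, adjusted p = 0.0319), whose call was lost in 19 of 34 alternative fits. The 2 higher ones were desaturases of polyunsaturated fatty acids, Fads2 and Fads1. Fads2 was 46.5 to 77.7 CPM in the 5 libraries and 443 CPM in Ensure fasted 5, against 6.52 to 26.3 CPM (log2 fold change 2.47, SE 0.37, adjusted p = 0.000113, and 1.84 with adjusted p = 3.12e-06 without Ensure fasted 5). Fads1 was 86.0 to 102 CPM in the 5 libraries and 407 CPM in Ensure fasted 5, against 48.9 to 78.3 CPM (log2 fold change 1.03, adjusted p = 0.00864, and 0.58 with adjusted p = 1.15e-05 without Ensure fasted 5). The calls of Fads2 and Fads1 held in all 34 alternative fits.

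Mitochondrial lists moved by small amounts. Of 32 oxidative phosphorylation genes 11 were called lower, beside 12.4% of all genes, with a median of -0.14 beside -0.06 for all genes tested. Sdhb, a subunit of complex II, was 71.0 to 124 CPM against 108 to 152 CPM (log2 fold change -0.39, SE 0.09, adjusted p = 0.00592). With library size in place of TMM none was called and the median was 0.02, so the direction depended on scaling. Of 20 branched-chain amino acid enzymes 6 were called lower, beside 12.4% of all genes. None was called without Ensure fasted 5, in a fit that called 582 of 15809 genes lower. Ppargc1a, a coactivator of mitochondrial genes that is abundant in kidney, was higher, at 8.61 to 13.9 CPM in the 5 libraries and 6.45 CPM in Ensure fasted 5, against 4.40 to 10.7 CPM (log2 fold change 0.78, SE 0.13, adjusted p = 0.000271).

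The largest fold changes among called genes with a mean of at least 1 CPM were taken in each direction, passing over predicted names. The 12 highest were Mroh4, Ush1c, Abo, Atp13a4, Rgs22, Mmd2, Pax8, Cyp2j13, Rab17, Slc9a3, Hsd3b6 and Sectm1b, with log2 fold changes of 5.48 to 5.90. Pax8 and Slc9a3 are genes of tract epithelium, described above without a test, so their place here is no further evidence. Genes low in the Cdh16-poor libraries can also pass the filter on low counts through the Cdh16-rich ones. The 12 held both profiles. Ush1c, a scaffold of microvilli and hair cells, was 8.58 to 13.2 CPM in the 5 libraries and 1.8 CPM in Ensure fasted 5, whereas Atp13a4, a cation pump, was 0.249 to 8.75 CPM in the 5 and 71.5 CPM in Ensure fasted 5. Sectm1b was 14.8 to 22.5 CPM in the 5 and 0.95 CPM in Ensure fasted 5, inside the Cdh16-poor range.

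The 12 lowest were Rgs1, Il1rn, Atp6v0d2, Trem2, Kng2, Mmp3, Mmp13, Syn1, Orm2, F7, Mmp27 and Cd300lb, with log2 fold changes of -1.88 to -1.28. Of these 10 had their highest level in HFD fasted 28, and Syn1 and Orm2 in Ensure fasted 8. Rgs1, a G protein regulator of leukocytes, was 1.30 to 26.1 CPM (median 3.76) against 1.70 to 197 CPM (median 7.11), adjusted p = 0.0319, 0.0956 without Ensure fasted 5 and 0.0647 without HFD fasted 28. Orm2, an acute phase protein, was 1.35 to 4.27 CPM (median 2.44) against 2.31 to 21.8 CPM (median 6.04), with log2 fold change -1.46, SE 0.30, adjusted p = 0.00224 and 0.00873 without Ensure fasted 5. Of the 12, only Kng2, Syn1 and Orm2 were called both without Ensure fasted 5 and with lane as a term, and none was called without the 5 libraries rich in epididymal and sperm genes.

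The labelled comparisons were not used to form the split. Over the 173 epithelial and cilium genes tested, with group as the only term, HFD fasted against fed called 0, beside 1.22% of all 16015 genes, with 3 at an unadjusted p under 0.05. With the split as a term edgeR again called 0, beside 1.17% of all genes, and DESeq2 called 1, Sult1e1 (adjusted p = 0.0428). Ensure against HFD called 2 of the 173 in fed (4.26% of all genes) and 1 in fasted libraries (2.82%). These comparisons share groups with each other.

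In Ensure, fasted against fed called 21 of the 173 (19 higher, 2 lower), beside 20.3% of all genes. With the split as a term it called 12 (10 higher, 2 lower), beside 18.5%. Of the 12, 9 were intraflagellar transport genes, named here after their values were seen. Bbs2, a subunit of the BBSome that carries receptors out of the cilium, was 7.81 to 12.0 CPM in the 6 Ensure fed and 13.8 to 25.1 CPM in the 5 Ensure fasted libraries without overlap (log2 fold change 0.83, SE 0.12, adjusted p = 0.000158, and 0.00645 with lane as an added term). Ift43 was 9.65 to 11.1 CPM fed and 14.0 to 17.5 CPM fasted (log2 fold change 0.63, SE 0.12, adjusted p = 0.00145, and 0.0291 with lane). Bbs1, Bbs9, Dync2li1, Ift140 and Ift172 were also called higher, and Ift20 and Kif3b lower. Only Bbs2, Bbs9 and Ift43 were called with lane as a term. None of 55 motile cilium machinery genes was called in either fit, with a median of 0.82 without and -0.23 with the split as a term.

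Some genes were called without the split as a term and not with it, and 3 are given as examples chosen after their values were seen. Cldn3, a tight junction protein, was 0.348 to 7.44 CPM in the Ensure fed libraries, 156 CPM in Ensure fasted 5, 19.2 CPM in Ensure fasted 2 and lower in the other fasted libraries, with a median of 2.08 CPM (adjusted p = 0.0499 without and 0.612 with the split). Cldn4, a related protein, was 0.0513 to 0.718 CPM in the Ensure fed libraries and 0.102 to 39.2 CPM in the Ensure fasted ones, with a fasted median of 0.329 CPM (adjusted p = 0.0303 without and 0.546 with the split). Gata3, a transcription factor of duct epithelium, was 0.822 to 3.18 CPM fed and 0.843 to 80.2 CPM fasted, with a median of 1.27 CPM (adjusted p = 0.0208 and 0.237). Over all 16015 genes, the Ensure comparison called 1690 higher and 1565 lower without the split term, and 1422 and 1547 with it. Beside these, the split term took simple epithelial calls from 5 to 0 of 35 and Sertoli cell calls from 4 to 1 of 8. Smooth muscle calls went from 9 to 1 of 11. The split term took interferon-responsive calls from 2 to 9 of 21, all higher in fasted libraries. Cholesterol synthesis had 14 of 20 genes called lower in both fits.

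Over all genes, the split term changed the fasting calls by few in HFD and more in Ensure. HFD fasted against fed had 30 higher and 165 lower without it and 41 and 147 with it, of which 26 and 142 were shared. HFD libraries alone gave 0 in each direction. Ensure had 1690 higher and 1565 lower without it and 1422 and 1547 with it, of which 1209 and 1472 were shared. With lane as an added term the Ensure counts were 385 and 629, and the HFD counts 12 and 50.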

How the data were processed

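Gene counts of 19 libraries were deposited by the authors as 1 table a library. Per the submitters' processing notes, the tools included bcl2fastq 1.8.4, TopHat2 2.1 and HTSeq 0.6.1, and the build was mm9. Per the labels' protocols, poly-A RNA was prepared with a TruSeq RNA kit. The tables hold 24348 gene rows. HTSeq's summary lines stayed out of library sizes (reads assigned to no feature were 13.0% to 17.3% of each total). Libraries were split at 20 CPM of Cdh16, which was itself left out of the split's calls. The members, the 40 gene lists (655 of 669 symbols in the files) and the named genes were chosen with earlier results of these data known. Named genes are up to 12 in each direction by fold, the 3 of each list with the smallest p, 12 fixed genes and the 10 most like Cdh16. A few other members are named where their pattern differs, after their values were seen.

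Tests used edgeR 4.0.16 (quasi-likelihood, TMM, minimum count of 10 by group, Benjamini-Hochberg over all genes tested) in R 4.3.3 with terms for group and split over all 19 libraries. Alternatives used DESeq2 1.42.0, limma 3.58.1 (voom), other scalings, filters, terms and libraries. The script was tested on simulated data. SE is the absolute log2 fold change over the square root of F. No label says whether libraries came from separate mice or cages, so each p-value reflects variation among these libraries, which may be technical. Counting does not state strand, so overlapping antisense genes are not told apart.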

Additional observations from a re-analysis of the deposited data

Results flagged for a closer look

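Within each labelled group and within the 6 Cdh16-rich libraries, 12 genes were checked for a single library far from the others by Dixon's criterion, 60 combinations in all. Of these 26 stood out, 7 of them within the Cdh16-rich libraries. Chance flags about 1 group in 20, but the genes include markers of the split chosen with results known and the groups overlap, so the number of flags is no evidence beyond the split itself.

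In HFD fed, library 21 was far above the rest for Pax8 (14.1 CPM), Foxj1 (60.8), Epcam (31.9), Mmp7 (46.3) and Dcdc2a (126). In Ensure fed, library 16 was far above for Foxj1 (50.9 CPM), Epcam (31.0), Mmp7 (54.3) and Dcdc2a (126), and library 10 for Crisp1 (466) and Prm1 (17.7). In Ensure fasted, library 2 was far above for Foxj1 (65.6 CPM), Mmp7 (66.0), Dcdc2a (111) and Prm1 (117). Library 5 of the same group was far above for Pax8 (152 CPM), Crisp1 (8391) and Myh11 (3580) and far below for Plin1 (589, next 1092).

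Among the 6 Cdh16-rich libraries, Ensure fasted 5 was far below the others for Foxj1 (8.5 CPM, next 50.9) and Dcdc2a (19.4, next 111). It was far above for Pax8 (152 CPM, next 23.6), Epcam (163, next 48.1), Crisp1 (8391, next 405) and Myh11 (3580, next 132). Ensure fed 16 was far above for Fasn (8312 CPM, next 2221).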

How the results depend on the processing

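Across the split, higher calls fell from 2598 to 759 in HFD libraries alone, 1552 in Ensure libraries alone, 648 in fed libraries alone and 1270 without the 5 libraries rich in epididymal and sperm genes. Lower calls fell from 1990 to 190 with library size alone, 1163 with no filter, 1238 with a minimum count of 50, 1255 with no group term, 0 in HFD, 953 in Ensure, 16 in fed and 839 in fasted libraries alone, 17 without the 5 libraries and 576 without Ensure fasted 5 and Ensure fed 1. Leaving out 1 library gave 2295 to 3075 higher and 508 to 2252 lower.

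HFD fasting with the split as a term had 41 higher calls, against 15 with no filter, 218 with DESeq2, 12 with lane, 0 in HFD libraries alone, 17 without the 5 libraries and 69 without Ensure fasted 5 and Ensure fed 1. Its 147 lower calls became 94 with DESeq2's size factors in edgeR, 90 with no filter, 422 with DESeq2, 50 with lane, 0 in HFD libraries alone and 85 without the 5 libraries. Ensure fasting became 385 higher and 629 lower with lane, and 511 and 691 without the 5 libraries. Leaving out 1 library gave 2 to 97 higher and 11 to 253 lower for HFD, and 763 to 1551 higher and 1176 to 2512 lower for Ensure. Epithelial and cilium calls in Ensure fasting were 21 without and 12 with the split as a term. Fisher's exact p ranged from 0.294 to 0.62 for feeding and 0.608 to 1 for diet over left-out libraries.

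Adipoq, not called, turned from -0.34 to 0.17 on the log2 scale in HFD libraries alone. The cause of these changes was not tested, beyond the smaller number of libraries in the fits that leave some out. No paired analysis was possible because the groups share no replicate numbers. A planned fit without libraries over 100 CPM of epididymal and sperm genes was not run, since it left no Cdh16-rich library. The fits without the 5 libraries, without Ensure fasted 5 and Ensure fed 1, and with the split added to the labelled comparisons were chosen after seeing the data.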
